A study of Sus scrofa with 4 samples.

Results

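RAB genes encode small GTPases that mark the membranes of a cell and direct vesicles between them. Each RAB protein switches between a GDP-bound form held in the cytosol and a GTP-bound form on a membrane, where it recruits motors, tethers and fusion factors. In oocytes, RAB11A-positive vesicles carry the actin nucleators that build the cytoplasmic actin network. RAB3A and RAB27A are known from the transport and release of secretory granules, to which the cortical granules of the egg are related.

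The RAB genes were taken as all rows of the deposited table whose symbol is RAB followed by a number and at most a letter and a further digit. This gave 59 rows, of which 54 hold values among 16050 genes with values. The other 5, RAB20, RAB34, RAB40B, RAB42 and RAB44, are listed without values. RNA had been sequenced from porcine oocytes at metaphase II, matured in vitro as cumulus-oocyte complexes for 44 h in the same medium with follicular fluid, EGF, insulin, hCG and eCG. The Control group received no added Cu, and copper sulfate was added at 25 μg/mL in the Cu group. Each library was a pool of 3 oocytes amplified by Smart-seq2, the ovaries came from a slaughterhouse, and the sources used here do not tie libraries to animals. The 4 libraries analysed are Control 1, Control 2, Cu 1 and Cu 3. The study describes 3 sets per group, and the remaining set of each group enters here only through the authors' mean of its group. Nothing states that the libraries came from separate cultures, so the p-values measure the spread between these pools, which may be technical.

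The unit is FPKM, a number of fragments divided by transcript length and by library size, which allows levels to be compared between genes. FPKM keep no read number, so the depth behind each value is unknown. Pairs of values are given in the order Control 1 and Control 2, then Cu 1 and Cu 3. FPKM are shares of a library, and fewer cells of a type and less RNA per cell cannot be told apart in such pools. All 11 oocyte markers looked up (GDF9, BMP15, ZP2 and others) had values, with a sum of 8820 and 10209 FPKM in the Control libraries and 11462 and 10119 FPKM in the Cu libraries. Their median log2 difference between Cu and Control was 0.59, where that of all tested genes was 0.16, and it was 0.28 without Cu 1. Of these markers 8 were higher in Cu and 3 lower, as were 5494 and 3047 of the 8541 tested genes. Among the markers 4 were separated with Cu on top and 0 with Control on top, where 25.4% and 13.4% of all tested genes were. ZAR1 had an unadjusted p of 0.045 (adjusted p = 0.685 by limma), where 5.58% of all tested genes were called higher at 0.05. Whether the movement of oocyte markers has a part in the RAB differences was not tested. Of 15 cumulus and granulosa markers, 8 had values, their sum was 1.43 and 2.05 FPKM in the Control libraries and 2.63 and 1.05 FPKM in the Cu libraries, and AMH was listed at 0 in all 4 libraries. Cu 1 stood apart from the other libraries, with 9364 genes at 1 FPKM or more against 7923 to 8162 in the others, and it held the highest value in 51.0% of the 8541 tested genes. It also had the highest level in 18 of the 37 tested RAB genes. Values without Cu 1 are given for a part of the genes, and not for every gene that moved.

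RAB11A was by far the most abundant RAB transcript of these oocytes. Control 1 held 346 FPKM of it, Control 2 339.5 FPKM, Cu 1 404 FPKM and Cu 3 424 FPKM, and its mean was 4.56 times that of RAB2A, the next in the order. RAB11A, the main RAB of recycling endosomes (identifier 595117, Sscrofa11.1, chromosome 1, 163858254 to 163887741), made up between 33.2% and 39.1% of the summed FPKM of the 54 RAB genes. Summed over the RAB genes the Control libraries had 901 and 1021 FPKM and the Cu libraries 1057 and 1085 FPKM, or between 0.138% and 0.166% of all FPKM in a library. The 8 most abundant members, RAB11A, RAB2A, RAB27A, RAB18, RAB7A, RAB1A, RAB6A and RAB14, together held 74.1% of the RAB signal. They belong to recycling, ER to Golgi, secretory and lysosomal routes, so no single route accounted for the abundant members.

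**Figure D1:**
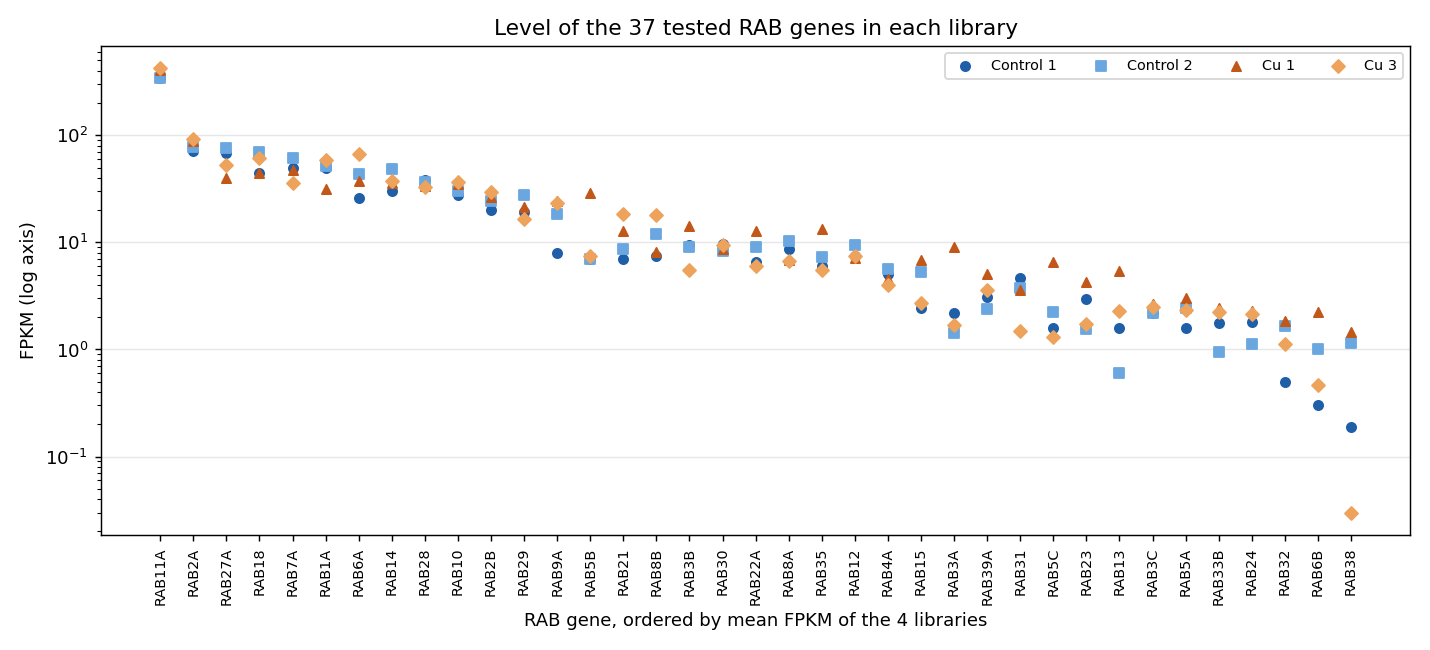
FPKM on a log axis of the 37 tested RAB genes, ordered by their mean, with 1 symbol for each of the 4 libraries. RAB11A stands above all others at 339.5 to 424 FPKM, and among the weaker genes on the right the Cu 1 symbol is most often the highest.

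Of the 54 RAB genes, 32 were at 1 FPKM or more in every library, 13 were below 1 FPKM in every library. Of these 13, 9 were listed at 0 in at least 1 library. The 17 members that did not pass the filter for testing (1 FPKM or more in at least 2 libraries) had mean levels of at most 1.04 FPKM. They were RAB1B, RAB3D, RAB4B, RAB7B, RAB9B, RAB11B, RAB17, RAB19, RAB25, RAB26, RAB27B, RAB33A, RAB36, RAB37, RAB39B, RAB40C and RAB43. No tested member had passed the filter through the libraries of only 1 group. Epithelial RABs were among those nearly silent: RAB25 was at 0.05 FPKM in Control 1 and RAB17 at 0.04 FPKM in Cu 1, and both were listed at 0 in the remaining libraries.

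Between the groups, none of the 37 tested RAB genes reached an adjusted p of 0.05 by limma, where 0% of all tested genes did. The smallest adjusted p among the RAB genes was 0.707. At an unadjusted p of 0.05, 1 RAB gene, RAB13, was called higher in the Cu libraries (5.58% of all tested genes were) and 0 were called lower (1.43% of all tested genes). RAB13 was not called without Control 1, without Control 2 or without Cu 1. Without either Control library 0 RAB genes were called, and without Cu 1 the calls were RAB6A, RAB8B, RAB9A, RAB21 and RAB31, 5 genes among 1324 of the 8541. The groups did not overlap, with Cu on top, in 12 RAB genes, 32.4% of those tested, as they did in 25.4% of all tested genes. They did not overlap, with Control on top, in 6 RAB genes, or 16.2%, against 13.4% of all tested genes. These shares were near those of the whole transcriptome and are no result about the RAB genes as a group. Leaving out Cu 3, so that Cu 1 alone stood for the Cu group and was assumed to vary like the Control libraries, put 4 RAB genes below an adjusted p of 0.05, RAB3A, RAB5B, RAB5C and RAB13, among 1755 such genes of the 8541. Without Cu 1 there were 0 such RAB genes among 186. The exact permutation test of 2 libraries against 2 cannot give a two-sided p below 0.33 for any single gene.

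On the log2(FPKM + 1) scale the median difference between Cu and Control was 0.27 over the 37 RAB genes and 0.16 over all tested genes. Without Cu 1 these medians were 0.067 and 0.0023, and without Control 1 they were 0.12 over both. The RAB differences ranged from -0.63 to 1.18, with 24 members higher and 13 lower. The order of the libraries depended on how they were scaled to each other. After median-of-ratios scaling, which divided Cu 1 by 1.3 and the other libraries by 0.896 to 0.966, 4 RAB genes were separated with Cu on top and 8 with Control on top, in place of 12 and 6, where 17.1% and 22% of all tested genes were so separated. With quantile normalization the numbers were 6 and 8, and 16.7% and 22.8% of all tested genes. The median of all tested genes was then -0.042 and -0.049, and the RAB median was 0.075 and 0.084 above it, compared with 0.11 above it for FPKM as deposited. RAB13, RAB21 and RAB39A stayed above, and RAB27A, RAB7A, RAB28, RAB8A, RAB4A and RAB31 stayed below, under both scalings. By the authors' means, the remaining sets ended the separation of RAB13, RAB39A, RAB27A, RAB7A, RAB8A, RAB4A and RAB31. With these sets RAB21 and RAB28 stayed separated.

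**Figure D2:**
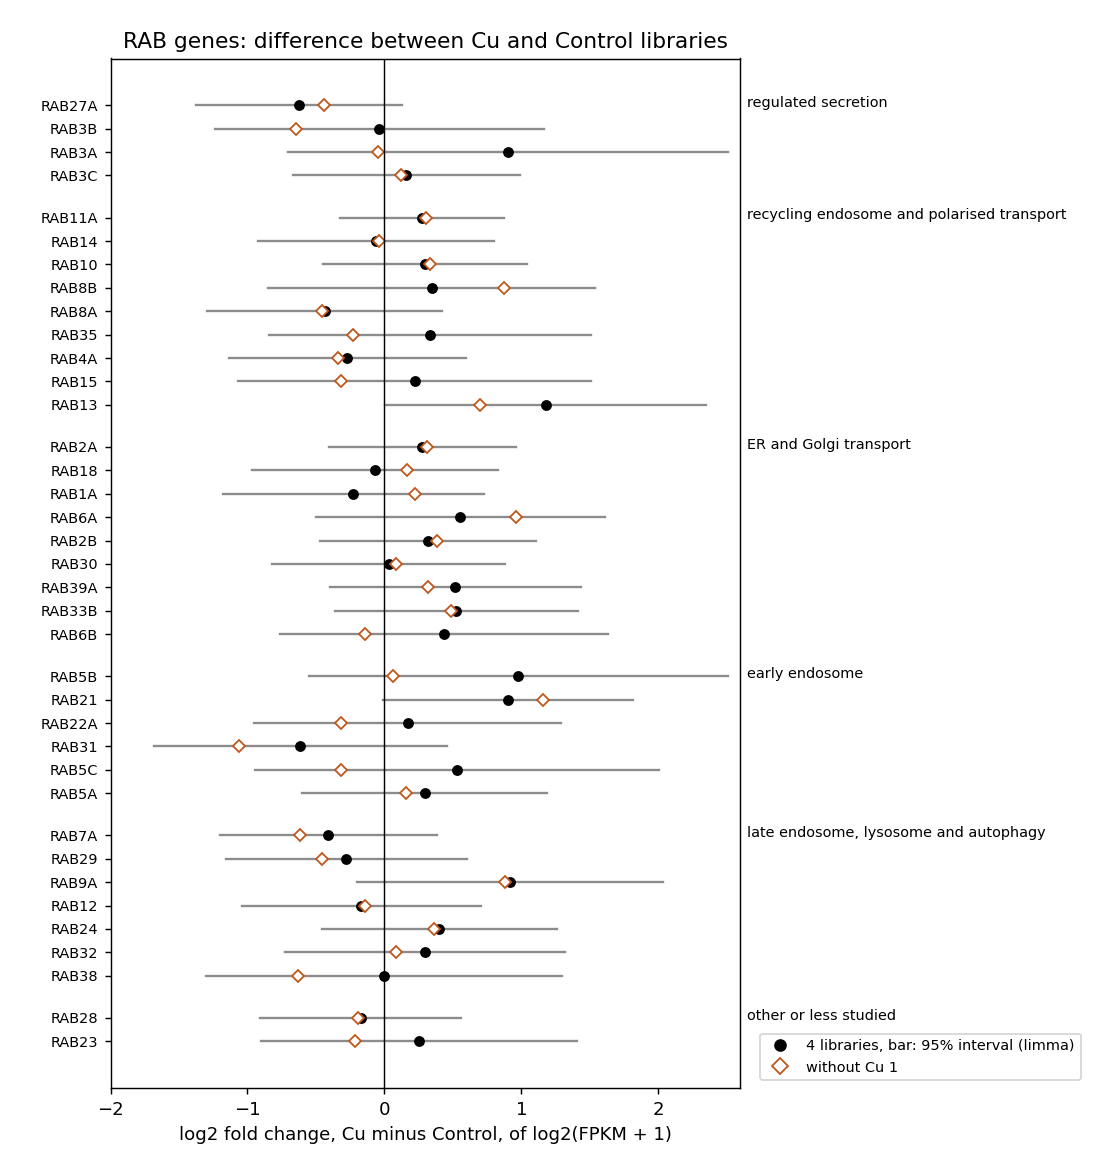
Difference between Cu and Control of log2(FPKM + 1) for the 37 tested RAB genes by route, with black dots for the fit of 4 libraries, bars for its 95% interval and open diamonds for the fit without Cu 1. Only the interval of RAB13 lies wholly above 0, and for RAB3A, RAB5B and RAB5C the diamond lies far to the left of the dot.

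Of the RABs of regulated secretion, 8 had values and 4 were tested. RAB27A, which tethers secretory granules to cortical actin through its effectors (identifier 606749, chromosome 1, 116532816 to 116606477), had 68.2 and 75.4 FPKM in the Control libraries against 40.3 and 52.7 FPKM in the Cu libraries. Both Cu libraries lay below both Control libraries, and the log2 difference was -0.63 (standard error 0.31, 95% interval -1.38 to 0.13, adjusted p = 0.710 by limma). It was -0.44 without Cu 1 and stayed between -0.87 and -0.44 under the alternative fits, in which the adjusted p was between 0.060 and 1. The authors' means over 3 libraries were 58.2 FPKM for Control, below both Control libraries here, and 55.9 FPKM for Cu, above both Cu libraries. They put the remaining Control set below both Control libraries and the remaining Cu set above both Cu libraries. With these sets the groups of RAB27A were no longer separated.

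RAB3A, a RAB of synaptic and secretory vesicles (identifier 100144498, chromosome 2, 59603090 to 59609773), was weak, with 2.2 and 1.42 FPKM in Control 1 and 2, 9.05 FPKM in Cu 1 and 1.69 FPKM in Cu 3. The higher Cu mean came from Cu 1 alone, since Cu 3 lay between the Control libraries. The log2 difference of 0.90 (standard error 0.66, 95% interval -0.71 to 2.51, adjusted p = 0.780 by limma) became -0.049 without Cu 1 and 1.85 without Cu 3. The strongest paralog was RAB3B, with 9.37 and 9.12 FPKM in the Control libraries against 14.3 and 5.55 FPKM in the Cu libraries. Here the Cu libraries lay on either side of the Control libraries, and the log2 difference of -0.036 was -0.65 without Cu 1 and 0.57 without Cu 3. RAB3C was even, with 2.2, 2.21, 2.68 and 2.49 FPKM in Control 1, Control 2, Cu 1 and Cu 3, and RAB3D was at 0.06 FPKM in Control 2 and listed at 0 elsewhere. RAB27B was at most 0.38 FPKM in any library, RAB26 at most 0.15 and RAB37 at most 0.13.

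Among the RABs of recycling endosomes and polarised transport, 9 of 13 were tested. RAB11A differed by 0.27 on the log2 scale (standard error 0.25, 95% interval -0.33 to 0.87, adjusted p = 0.810 by limma). The Cu libraries were on top as deposited and after quantile normalization, but not after median-of-ratios scaling, where the difference was 0.025. The authors' means were 376 FPKM for Control and 434 FPKM for Cu. The Control mean lay above both Control libraries, so the remaining Control set was higher than both. With the remaining sets the groups of RAB11A were no longer separated. Within each library, which needs no scaling between libraries, RAB11A was 5.07 and 4.5 times as abundant as RAB27A in Control 1 and 2 and 10.03 and 8.05 times in Cu 1 and 3. This pair was chosen after its values were seen. In the authors' means the same ratio was 6.46 for Control, above both Control libraries, and 7.76 for Cu, below both Cu libraries. The remaining Control set thus had a higher ratio than both Control libraries, and the remaining Cu set a lower one than both Cu libraries. With these sets the ratio did not separate the groups.

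RAB13, which acts in transport to cell junctions, had 1.6 and 0.6 FPKM in the Control libraries against 5.44 and 2.31 FPKM in the Cu libraries. It had the largest difference of the tested RAB genes, 1.18 on the log2 scale (standard error 0.48, unadjusted p = 0.049 and adjusted p = 0.707 by limma), and 0.70 without Cu 1. By the authors' means, 2.12 FPKM for Control and 3.01 FPKM for Cu, the log2 ratio of RAB13 was 0.36. The Control mean lay above both Control libraries, so the remaining Control set was higher than both. With the remaining sets the groups of RAB13 were no longer separated. RAB8A and RAB8B are close paralogs of transport to the plasma membrane. RAB8A had 8.71 and 10.4 FPKM in the Control libraries against 6.89 and 6.66 FPKM in the Cu libraries, a log2 difference of -0.44 (standard error 0.35). RAB8B had 7.42 and 11.95 FPKM in the Control libraries against 8.21 and 18.1 FPKM in the Cu libraries, with the groups overlapping and a log2 difference of 0.35 that was 0.87 without Cu 1 and -0.18 without Cu 3. RAB14, of traffic between the Golgi and endosomes, had 30.4 and 48.5 FPKM in the Control libraries against 36.0 and 37.5 FPKM in the Cu libraries, so that the Control libraries enclosed the Cu libraries. RAB10 had a log2 difference of 0.30 and RAB4A one of -0.27, with 0.33 and -0.34 without Cu 1. RAB15 and RAB35 had differences of 0.22 and 0.33 with all libraries but of -0.31 and -0.23 without Cu 1.

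**Figure D3:**
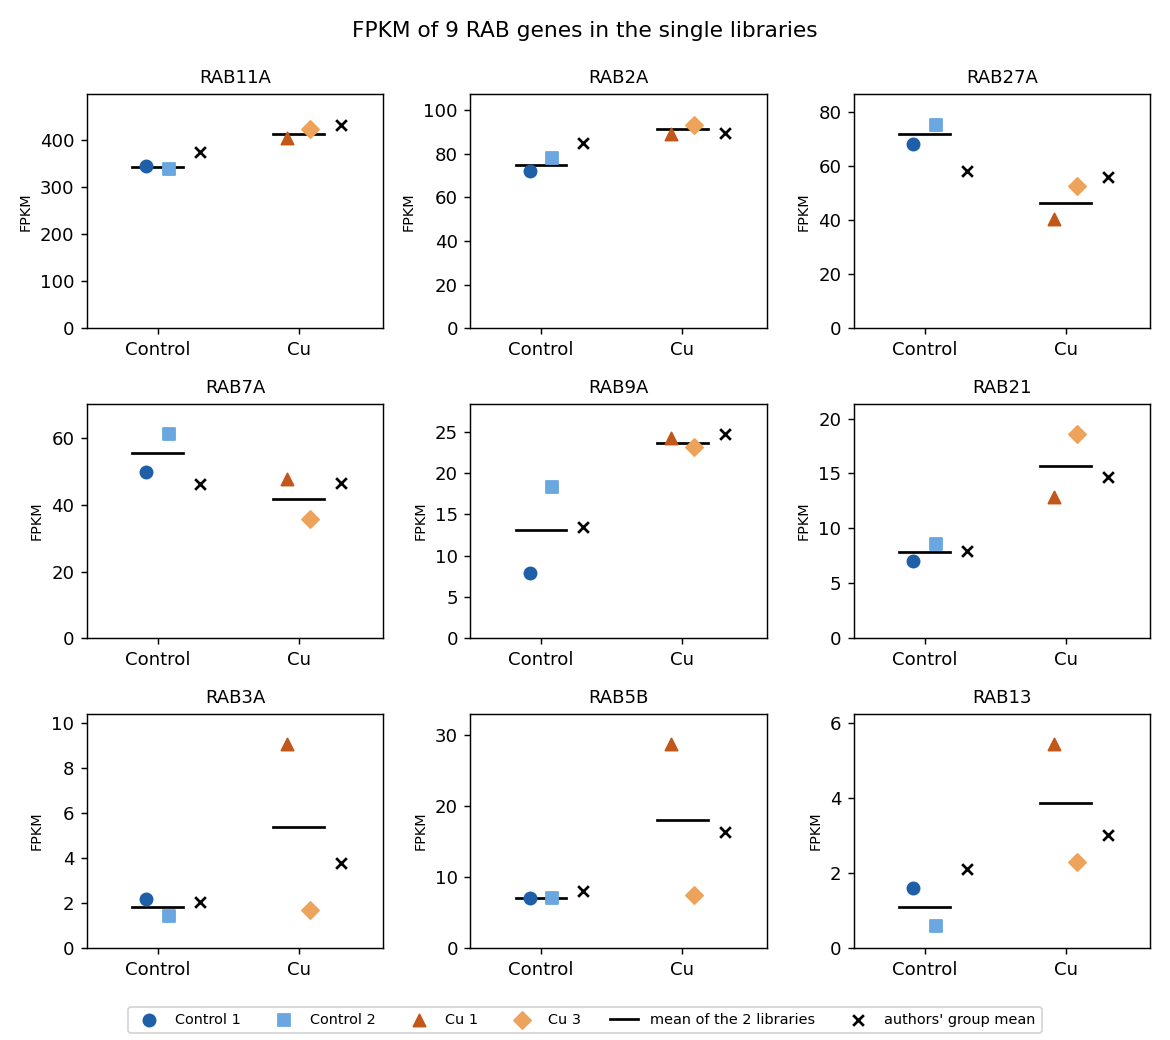
FPKM of 9 RAB genes in Control 1, Control 2, Cu 1 and Cu 3, with a bar for the mean of the 2 libraries of a group and a cross for the authors' group mean. The libraries of a group lie close together for RAB11A and RAB2A, but the Control crosses of both genes lie above their Control libraries. Cu 1 alone is high for RAB3A and RAB5B. The crosses of RAB27A lie at 58.2 and 55.9 FPKM although the libraries of the groups are separated.

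The RABs of the ER and Golgi had 9 tested members of 15 with values, of which 4 were separated with Cu on top (25.4% of all tested genes were) and 0 with Control on top (13.4% of all tested genes). With 9 genes these counts are a description and no result about the route. RAB2A, which keeps Golgi structure and transport between ER and Golgi, had 72 and 77.9 FPKM in the Control libraries against 88.8 and 93.3 FPKM in the Cu libraries. Its log2 difference was 0.28 (standard error 0.28, adjusted p = 0.831 by limma), and it was 0.31 without Cu 1 but 0.033 after median-of-ratios scaling. By the authors' means, 85.0 FPKM for Control and 89.6 FPKM for Cu, the log2 ratio of RAB2A was 0.075. The Control mean lay above both Control libraries, and with the remaining sets the groups of RAB2A were no longer separated. RAB2B had the same order at a lower level, with 20.0 and 24.6 FPKM in the Control libraries against 26.6 and 29.3 FPKM in the Cu libraries. RAB39A and RAB33B, both weak, were the other 2 with the Cu libraries on top, at log2 differences of 0.52 and 0.53. After median-of-ratios scaling RAB39A alone kept this order among the 4. With the remaining sets the groups of RAB39A and RAB33B were no longer separated, and those of RAB2B stayed separated.

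RAB1A, required for transport from the ER to the Golgi, was at 49.3 and 51.6 FPKM in the Control libraries against 31.2 and 59.0 FPKM in the Cu libraries, below both Control libraries in Cu 1 and above both in Cu 3. RAB6A, of transport within and from the Golgi, had 25.9 and 43.2 FPKM in the Control libraries against 37.1 and 66.2 FPKM in the Cu libraries, a log2 difference of 0.56 with overlapping groups. It was 0.96 without Cu 1, 0.15 without Cu 3, 0.20 without Control 1 and 0.92 without Control 2. RAB18, a RAB of the ER and of lipid droplets, had 44 and 69.5 FPKM in the Control libraries against 44.9 and 62.0 FPKM in the Cu libraries. For RAB18 the spread inside each group was larger than the difference of the groups, and the log2 difference of -0.067 (95% interval -0.96 to 0.83) was 0.16 without Cu 1. RAB30 was level between 8.32 and 9.59 FPKM in the 4 libraries. Its authors' means were 7.43 FPKM for Control and 12.96 FPKM for Cu, so the remaining sets lay outside this range. The groups of RAB6B, at 0.3 to 2.26 FPKM, overlapped.

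Early endosome RABs had 6 tested members. The RAB5 proteins, which drive the fusion of early endosomes, were led by RAB5B with 7.0 and 7.06 FPKM in Control 1 and 2, 28.7 FPKM in Cu 1 and 7.41 FPKM in Cu 3. Cu 3 was nearly at the level of the Control libraries, and the log2 difference of 0.98 (standard error 0.63, adjusted p = 0.764 by limma) was 0.067 without Cu 1. RAB5C was likewise highest in Cu 1, at 6.51 FPKM against 1.32 to 2.25 FPKM in the other libraries. Its log2 difference of 0.53 was -0.32 without Cu 1. RAB5A was between 1.6 and 3.04 FPKM. RAB21, which follows integrins through endosomes, was named after its values were seen: it had 7.01 and 8.61 FPKM in the Control libraries against 12.8 and 18.6 FPKM in the Cu libraries. Its log2 difference of 0.91 (standard error 0.37, unadjusted p = 0.051 and adjusted p = 0.708 by limma) was 1.16 without Cu 1, and it lay between 0.66 and 1.16 under the alternative fits, with an adjusted p from 0.093 to 1. The authors' means of RAB21 were 7.97 FPKM for Control and 14.7 FPKM for Cu. RAB31 was on the other side, with 4.7 and 3.73 FPKM in the Control libraries against 3.62 and 1.49 FPKM in the Cu libraries, a log2 difference of -0.61 (standard error 0.44) that was -1.06 without Cu 1 and -0.17 without Cu 3. RAB22A overlapped between the groups, at 5.99 to 12.8 FPKM.

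Late endosome and lysosome RABs had 7 tested members of 9. RAB7A, which directs late endosomes and autophagosomes to lysosomes, had 49.8 and 61.1 FPKM in the Control libraries against 47.8 and 35.7 FPKM in the Cu libraries. Both Cu libraries were lower, with a log2 difference of -0.41 (standard error 0.32, adjusted p = 0.793 by limma), or -0.61 without Cu 1 and -0.20 without Cu 3. The authors' means were 46.2 FPKM for Control and 46.5 FPKM for Cu. The Control mean lay below both Control libraries, so with the remaining sets the groups of RAB7A were no longer separated. RAB9A, of transport from late endosomes to the Golgi, had 7.88 and 18.3 FPKM in the Control libraries against 24.3 and 23.1 FPKM in the Cu libraries. Its Cu libraries agreed closely, and its log2 difference of 0.92 (standard error 0.46, adjusted p = 0.716 by limma) was 0.88 without Cu 1. It was 0.36 without Control 1, the library with the lowest level. RAB24, linked to autophagy, had a log2 difference of 0.40, and RAB29, RAB12, RAB32 and RAB38 had groups that overlapped. Of the remaining members, RAB28 had 38.1 and 36.7 FPKM in the Control libraries against 33.5 and 32.6 FPKM in the Cu libraries, a log2 difference of -0.17 (standard error 0.30), and RAB23, a regulator of Hedgehog signalling, overlapped between the groups.

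The distance between the libraries of a group set the limit of these comparisons. Cu 1 and Cu 3 were farther from each other than Control 1 and Control 2 in 22 of the 37 RAB genes, against 70.5% of all tested genes, and in 18 RAB genes the distance between Cu 1 and Cu 3 was larger than the difference between the groups, against 66.2% of all tested genes. The elevation of Cu 1 lay in the weaker RAB genes. Cu 1 was the highest library in 16 of the 21 members with a mean below 10 FPKM (57.7% of all tested genes below that level) and in 2 of the 16 members at 10 FPKM or more (43.3% of all tested genes there). Summed over all RAB genes below 10 FPKM, the level was 81.9 and 89.5 FPKM in Control 1 and 2, 136 FPKM in Cu 1 and 72.4 FPKM in Cu 3. Summed over the 16 members above it, Cu 1 at 921 FPKM lay between Control 1 and 2 at 819 and 932 FPKM. Whether the larger number of genes detected in Cu 1, or its marker sums, have a part in these differences was not tested.

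In several subfamilies of close paralogs a single gene carried nearly all of the signal. RAB11A exceeded RAB11B 1440-fold in Control 1, 970-fold in Control 2, 139-fold in Cu 1 and 785-fold in Cu 3, where RAB11B had 0.24, 0.35, 2.9 and 0.54 FPKM. RAB1A made up between 94.4% and 99.8% of the FPKM of RAB1A and RAB1B. In the RAB5 subfamily RAB5B held 68.8% and 60.1% in Control 1 and 2 and 75.0% and 67% in Cu 1 and 3, and the sum of the subfamily was 38.3 FPKM in Cu 1 against 10.2 to 11.8 FPKM in the other libraries. RAB3B held 68.0% and 71.2% of the RAB3 subfamily in Control 1 and 2 and 54.8% and 57.0% in Cu 1 and 3, and RAB2A and RAB2B, with 92.0 and 102 FPKM together in the Control libraries against 115 and 123 FPKM in the Cu libraries, were both well expressed. Paralogs of these subfamilies are similar in sequence, so their reads could have been divided between copies, and the levels of the weak paralogs are uncertain.

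**Figure D4:**
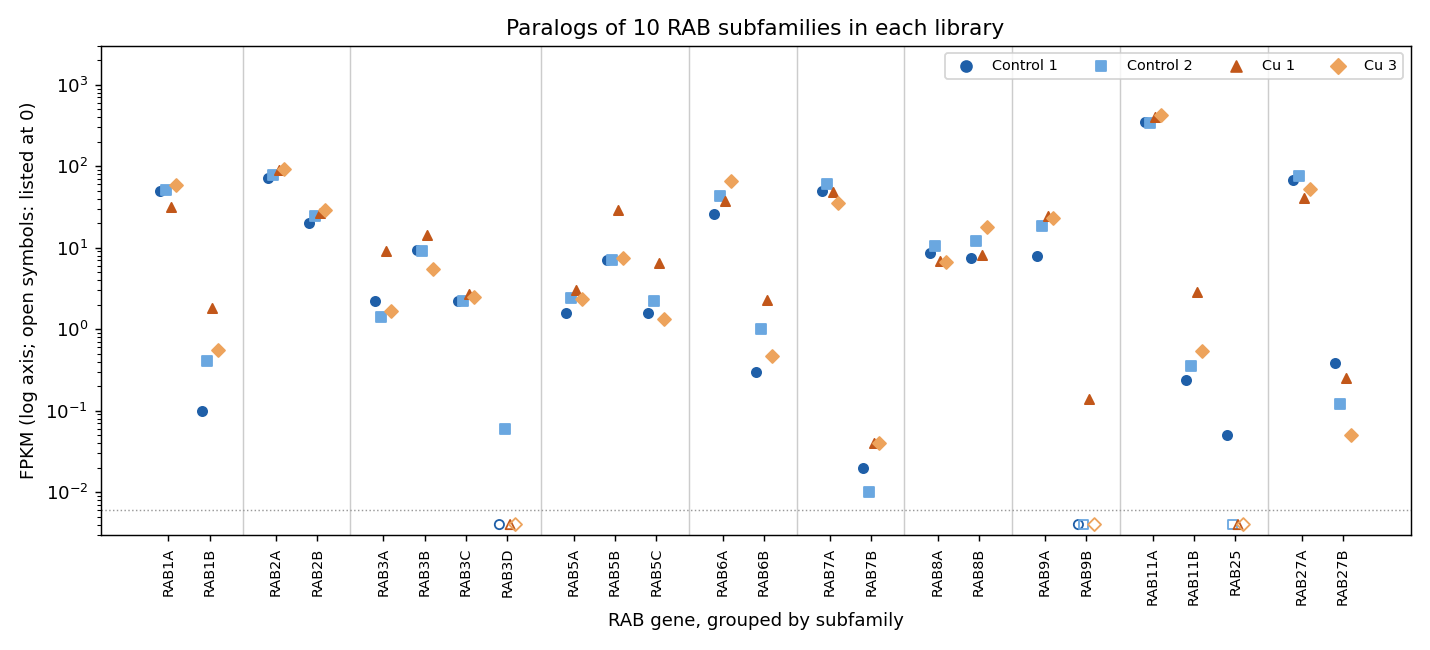
FPKM on a log axis of the paralogs of 10 RAB subfamilies in the 4 libraries, with open symbols below the dotted line for values listed at 0. RAB11A exceeds RAB11B at least 139-fold in each library, RAB27A and RAB1A also far exceed their paralogs, and the RAB2, RAB5 and RAB8 genes lie closer together.

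The genes that load, activate, inactivate and read RAB proteins were compared in the same way, and none of them reached an adjusted p of 0.05. Prenylation and recycling factors attach the lipid anchor and extract RABs from membranes. Of these, 12 were tested with a median log2 difference of 0.26, or 0.087 without Cu 1. The median was 0.057 after median-of-ratios scaling and 0.12 after quantile normalization. At an unadjusted p of 0.05 by limma 0 were called, where 5.58% of all tested genes were called higher and 1.43% lower. The most abundant was GDI2, which returns GDP-bound RABs to the cytosol, with 207 and 171 FPKM in the Control libraries against 347 and 146 FPKM in the Cu libraries.

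Exchange factors, which switch RABs on, had 33 tested genes with a median of 0.049, where the median of all tested genes was 0.16. At an unadjusted p of 0.05, 3 were called higher (5.58% of all tested genes were) and 0 lower (1.43% of all tested genes). The median of the list was -0.016 without Cu 1, -0.12 after median-of-ratios scaling and -0.18 after quantile normalization. TRAPPC1, a subunit of the TRAPP complexes that act on RAB1 and RAB11, had 38.9 and 35.8 FPKM in the Control libraries against 98.1 and 66.6 FPKM in the Cu libraries, a log2 difference of 1.09 (standard error 0.33, adjusted p = 0.641 by limma). The other 2 were SH3BP5, an exchange factor of RAB11, with 14.8 and 20.3 FPKM in the Control libraries against 37.3 and 28.7 FPKM in the Cu libraries, and MON1A, with 0.32 and 0.43 FPKM in the Control libraries against 12.6 and 1.37 FPKM in the Cu libraries. CCZ1, the partner of MON1A in activating RAB7, was the most abundant, with 222 and 181 FPKM in the Control libraries against 191 and 136 FPKM in the Cu libraries. MON1A was below 1 FPKM in both Control libraries and entered the test through the Cu libraries, and its log2 difference of 2.04 was 0.79 without Cu 1.

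GTPase-activating proteins, which switch RABs off, had 22 tested genes with a median of 0.20, and against the same shares of 5.58% and 1.43% of all tested genes 0 were called higher and 1 lower. The median was -0.049 without Cu 1, 0.0088 after median-of-ratios scaling and -0.044 after quantile normalization. TBC1D15, which acts on RAB7, had 74.6 and 65.3 FPKM in the Control libraries against 30.4 and 46.3 FPKM in the Cu libraries, a log2 difference of -0.88 (standard error 0.34, adjusted p = 0.676 by limma). The authors' means of TBC1D15 were 69.1 FPKM for Control and 44.1 FPKM for Cu. RABGAP1 was the most abundant of the list, with 68.6 and 59.1 FPKM in the Control libraries against 61.4 and 53.4 FPKM in the Cu libraries.

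Effectors and tethers had 45 tested genes with a median of 0.10, and 2 were called higher and 0 lower, against 5.58% and 1.43% of all tested genes. The median stayed at 0.10 without Cu 1 but was -0.10 after median-of-ratios scaling and -0.16 after quantile normalization. Both were weak: UNC13D, a priming factor bound by RAB27A, had 0.05 and 0.39 FPKM in the Control libraries against 1.6 and 1.08 FPKM in the Cu libraries, and VPS11, a core subunit of the tethers of endosomes and lysosomes, had 0.34 and 0.55 FPKM in the Control libraries against 1.97 and 1.27 FPKM in the Cu libraries. Since both had under 1 FPKM in the Control libraries, they entered the test through the Cu libraries. SYTL3, a RAB27 effector, was the most abundant with 107 and 98.5 FPKM in the Control libraries against 155 and 70.4 FPKM in the Cu libraries, so the Cu libraries enclosed the Control libraries.

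Of the genes that link RAB11A vesicles to actin, 5 were tested, with a median of -0.024, or 0.38 without Cu 1. The median was -0.23 after median-of-ratios scaling and -0.21 after quantile normalization. At an unadjusted p of 0.05 by limma 0 were called, where 5.58% of all tested genes were called higher and 1.43% lower. SPIRE1, a nucleator carried on the vesicles, had 21.0 and 21.6 FPKM in the Control libraries against 22.2 and 19.0 FPKM in the Cu libraries, a log2 difference of -0.048 (standard error 0.32). The formin FMN2 had 3.54 and 4.1 FPKM in the Control libraries against 4.71 and 2.92 FPKM in the Cu libraries, a log2 difference of -0.024 (standard error 0.38). MYO5B, the motor that moves these vesicles, had 7.67 and 11.2 FPKM in the Control libraries against 10.2 and 20.1 FPKM in the Cu libraries, with overlapping groups and a log2 difference of 0.57.

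Genes of the content and fusion of cortical granules had 11 tested members with a median of 0.10, or 0.023 without Cu 1 and -0.071 and -0.065 under the scalings. At an unadjusted p of 0.05 by limma 0 were called in either direction, where 5.58% of all tested genes were called higher and 1.43% lower. ASTL, the protease ovastacin that cortical granules release to harden the zona pellucida, had 1.69 and 4.14 FPKM in Control 1 and 2, 37.1 FPKM in Cu 1 and 4.12 FPKM in Cu 3. Cu 3 did not lie above the Control libraries, and the log2 difference of 1.91 (standard error 0.94) was 0.46 without Cu 1. SNAP23, the membrane fusion protein, was the most abundant with 54.7 and 99.2 FPKM in the Control libraries against 56.7 and 109 FPKM in the Cu libraries, and differed more inside the groups than between them.

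**Figure D5:**
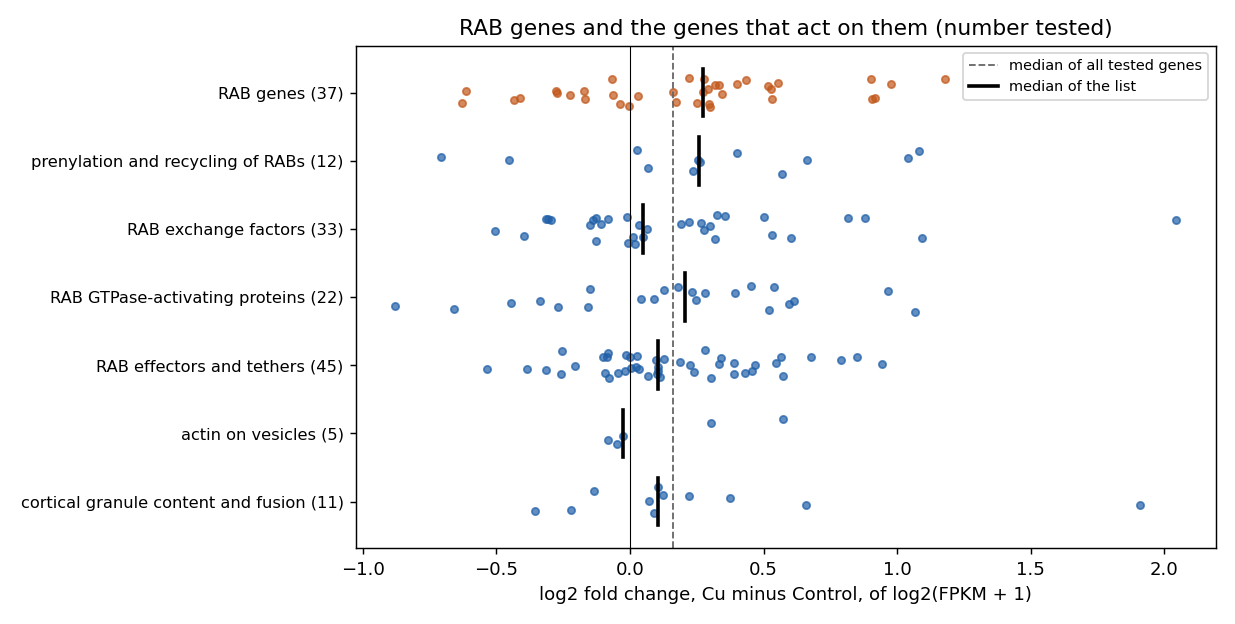
Differences between Cu and Control of log2(FPKM + 1) for the 37 tested RAB genes and the tested genes of 6 lists of partners, with 1 dot per gene, a black bar for the median of a list and a dashed line for the median of all tested genes at 0.16. The list medians lie between -0.024 and 0.27, and the dots farthest to the right are MON1A and ASTL.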

How the data were processed

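RNA of porcine metaphase II oocytes, 3 per pool, was measured by Smart-seq2 in 2 Control and 2 Cu libraries. The authors deposited 1 table of FPKM values per library, written with 2 decimals, and the mean FPKM of each group over its 3 sets. The paper's methods name HISAT2 and RSEM, while the submitters' processing notes list TopHat2 2.0.13, Cufflinks 2.2.1 and the build Sscrofa11.1, so which tool made the FPKM values is unsettled. Gene positions were taken from the RefSeq table of Sscrofa11.1, in which all 54 RAB genes were found. FPKM keep no read number, so neither a count test nor a counting interval was possible.

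Genes with at least 1 FPKM in at least 2 libraries (8541 of 16050) were tested on log2(FPKM + 1), a scale that understates the change of weak genes, with limma 3.58.1 in R 4.3.3 (moderated test with a variance trend, two-sided), and p-values were adjusted by the Benjamini-Hochberg method over all 8541. The script was tested on simulated data. The study's methods give a count model on 3 sets per group; the per-library values of the remaining sets were not analysed here. The members and lists were chosen with earlier results of these data known.

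Values are named in full for RAB3A, RAB11A, RAB27A and their paralogs, the 8 most abundant members, members at an unadjusted p of 0.05 or less, and the 3 largest differences in each direction among members whose groups did not overlap. For partners, the most abundant gene, at most 3 genes per direction at an unadjusted p of 0.05, and SPIRE1, SPIRE2, FMN2, MYO5B and ASTL were named. SPIRE2 is listed without values. Members named beyond this rule were chosen after their values were seen. The alternatives were a pseudocount of 0.1, no filter, median-of-ratios scaling, quantile normalization, no variance trend, the authors' means and leaving out each library.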

Additional observations from a re-analysis of the deposited data

How the results depend on the processing

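Of 128 values of the 16 fully named RAB genes under the alternatives that could move the size of a difference, 117 kept their direction. Of the genes, 9 kept it under each of these alternatives. Where the groups did not overlap, leaving out a library or changing the pseudocount could not turn the direction. Part of these numbers was thus fixed in advance, and of the 9 genes only RAB6A had overlapping groups. The filter and the variance trend cannot move a difference and were left out of the 128 values. With 1 library left out, the number of RAB genes below an adjusted p of 0.05 by limma lay between 0 and 4 (4 without Cu 3), at an unadjusted p of 0.05 between 0 and 9, with both groups separated upward between 15 and 23, and downward between 7 and 12. A lone library was assumed to vary like the other group, and it is separated more often by construction. The counts with 1 library left out are thus a description and no result about the RAB genes. No share of all tested genes is set beside these counts here, so they cannot show whether the RAB genes stood apart. The number at an unadjusted p of 0.05 was 2 each with a pseudocount of 0.1, with no filter and with no variance trend. Of all genes tested in these fits, 7.11%, 5.31% and 6.52% were called, so these counts do not set the RAB genes apart. Median-of-ratios scaling and quantile normalization lowered the median RAB difference to 0.033 and 0.035, and the number of members above in both Cu libraries to 4 and 6. RAB3C turned to -0.012 and -0.098 under these scalings. With 1 library left out, RAB3A ranged from -0.049 to 1.85, RAB3B from -0.65 to 0.57, RAB18 from -0.39 to 0.26, RAB1A from -0.67 to 0.22 and RAB14 from -0.39 to 0.26. By the authors' means RAB18 was at 0.14, RAB7A at 0.0091 and RAB1A at 0.0033. Apart from the number of libraries left, the cause of these changes was not tested. No paired analysis was possible because the Control and Cu libraries share only replicate number 1. Precision is limited by 2 libraries per group and the unknown depth.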

Other observations

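The authors' means over 3 sets hold a library of each group whose own values were not analysed here. They were higher in Cu for 28 of the 37 tested RAB genes and lower for 9, with a median log2 ratio of 0.14 against 0.11 over all tested genes, and had the same direction as the 4 libraries in 31 of the 37. The 6 genes with the other sign were RAB18, RAB7A, RAB1A, RAB29, RAB23 and RAB38. RAB2B had authors' means of 23.3 FPKM for Control and 34.8 FPKM for Cu, and RAB28 of 42.2 FPKM for Control and 33.7 FPKM for Cu, both chosen after their values were seen.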
